A study of Caenorhabditis elegans with 2 samples.

Results

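Cytoplasmic ribosomal protein genes were examined for the presence of the T-box transcription factor TBX-8 in embryos of the nematode Caenorhabditis elegans. The genes were taken as all protein-coding genes of the nuclear chromosomes in the Ensembl annotation whose symbol begins with rpl-, rps- or rla-, which gave 81 of 19973 genes. They comprised 47 rpl genes for proteins of the large ribosomal subunit, 31 rps genes for proteins of the small subunit and 3 rla genes for proteins of the acidic stalk. The rule refers to gene names only, and the set was taken up with earlier results of these data known.

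TBX-8 was mapped by chromatin immunoprecipitation and sequencing (ChIP-seq), in which DNA bound to a protein is sheared, precipitated with an antibody and sequenced. All samples belonged to 1 group with 2 biological replicates of strain RW10470. This line carries st10470, a tbx-8 transgene tagged with TY1, EGFP and 3xFLAG next to an unc-119(+) marker, in the unc-119(ed3) background. Per the labels the tagged factor was pulled down with an anti-GFP antibody. The material was whole embryos obtained by bleaching, of mixed sexes and stages and labelled as 2.5 hours old, and the DNA was sonicated to 200 to 800 bp. Both replicates came from this 1 transgenic line. The promoter that drives the fusion is not given in the labels, and no other condition was compared. Signal came from whole embryos, so occupancy in a few cells and weak occupancy in many cannot be told apart.

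The ribosome consists of a small subunit, which holds the messenger RNA and reads its codons, and a large subunit, which joins amino acids. Each subunit is built from ribosomal RNA and a set of proteins that are needed in nearly equal amounts, and the genes for these proteins are among the most strongly transcribed in growing cells. In C. elegans many of these genes lie in operons or close to divergently transcribed neighbours. The first bases of many worm messages are also replaced by a spliced leader, so an annotated start can be a splice site that lies downstream of the promoter. T-box factors bind DNA through a conserved domain whose preferred site holds the core GGTGTG. TBX-8 and the closely related TBX-9 have overlapping roles in shaping the embryo.

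The authors deposited a list of regions for each replicate, a list for the pooled reads of both, and a thresholded list of the regions left after replicate agreement was scored. The lists held 24167 regions for replicate 1, 20865 for replicate 2, and 16355 for the pooled reads. The thresholded regions, here called peaks, were the 3.19% of pooled regions with the highest signal, from 75.8 to 571, while the pooled list as a whole had a median of 34.6 and a lowest value of 27.5. Signal is the deposited value of each region. It is not scaled between lists and was compared within a list only. Each gene was given the highest region whose summit, the position of highest signal, lay within 2 kb of any of its transcript starts. The lists hold background regions on purpose. They carry no read counts, and the depth of either replicate is therefore unknown.

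A peak lay within 2 kb of a start for 17 of the 81 ribosomal protein genes, 21% of them, against 3.03% of all protein-coding genes. The rpl genes accounted for 10 of 47 and the rps genes for 7 of 31, shares of 21.3% and 22.6%, and none of the 3 rla genes had a peak. Regions at q below 0.05, a false discovery rate deposited with each region, were found at 22 genes, where the share among all genes was 4.84%. Some pooled region of any strength was present at 72 genes, 88.9%, beside 47.4% of all genes. Small RNA genes, meaning those for tRNA, snRNA, snoRNA or rRNA, lay more than 200 bp from the peak at 15 genes (all genes 2.13%). A peak can lie within 2 kb of several starts, and in 8 genes the ribosomal protein gene had the nearest start (all genes 1.86%).

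The count was smaller under stricter lists. The highest 260 peaks reached 8 ribosomal protein genes, 9.88% of them, against 1.63% of all genes. Peaks that were also in the top set of each replicate list, which holds as many of its highest regions as there are peaks, reached 11, against 1.83%. With lists of other lengths the share was above that of all genes at each length examined. The highest 100 regions lay at 4 of these genes (4.94%, all genes 0.656%), the highest 1000 at 25 (30.9%, all genes 5.45%) and the highest 4000 at 40 (49.4%, all genes 17%).

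**Figure D1:**
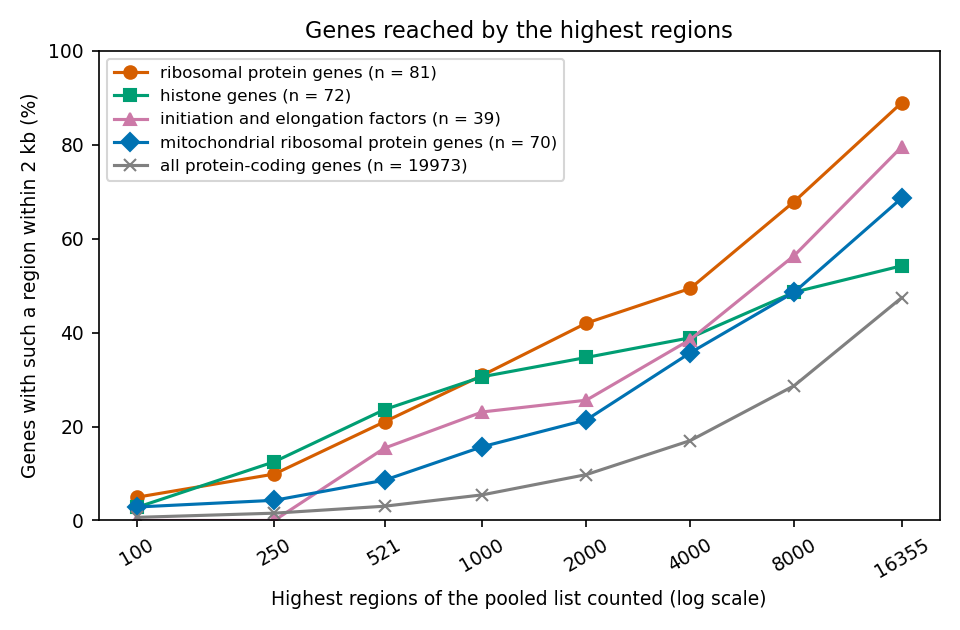
Percentage of genes with a region within 2 kb of a start (y axis) among the highest regions of the pooled list (x axis, log scale), for 5 sets of genes shown by colour and marker. The ribosomal protein genes lie above all protein-coding genes at every length, from 4.94% at 100 regions to 88.9% at 16355, and the histone genes lie above them at 250 regions and at the number of thresholded peaks.

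Of the 17 peaks, 12 had their summit 0 to 500 bp upstream of the ribosomal protein gene and 5 lay more than 1.5 kb from it. An upstream peak of this kind was thus present at 14.8% of the ribosomal protein genes and at 227 of all protein-coding genes, 1.14%. Among the genes with an upstream peak were 6 for the large subunit and 6 for the small subunit. The sequences around 9 of these summits are printed because the share of upstream peaks turns on them. The other 3 are named only. Roles given for single proteins are those known for their counterparts in yeast or human ribosomes.

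The 6 large-subunit genes included the highest peak of the set. It lay 247 bp upstream of rpl-3, which encodes the protein that reaches into the peptidyl transferase centre. The signal of the rpl-3 peak was 250 in the pooled list, 133 in replicate 1 and 116 in replicate 2, with ranks of 19, 21 and 23. No other protein-coding gene had a start within 2 kb of this summit. The rpl-15 gene encodes another core protein of the large subunit, and its peak lay 384 bp upstream. Its signal was 224 in the pooled list, 138 in replicate 1 and 83.0 in replicate 2, so that it ranked 18 in the first replicate and 65 in the second. The rpl-20 summit lay 302 bp upstream and only 160 bp from the start of Y17G9B.5, which is transcribed in the opposite direction. Signal at rpl-20 was 184 in the pooled list, 84.9 in replicate 1 and 101 in replicate 2. The rpl-35 gene, whose product lies at the mouth of the exit tunnel for new proteins, had its summit 454 bp upstream, with no other start within 2 kb. Its signal was 169 in the pooled list, 83.1 in replicate 1 and 84.5 in replicate 2. These 4 genes were among the 105 highest regions in each replicate.

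The remaining pair of large-subunit genes had lower peaks. At rpl-12, which encodes a protein at the base of the ribosomal stalk, the summit lay 66 bp upstream and lin-54 started on the other side. Signal there was 98.3 in the pooled list, 50.2 in replicate 1 and 55.3 in replicate 2. At rpl-7A the summit lay 24 bp upstream, with set-21 divergent, and the signal was 86.6 in the pooled list, 44.7 in replicate 1 and 41.2 in replicate 2. The rpl-12 and rpl-7A peaks ranked between 174 and 490 in the replicate lists, inside the top set of each.

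The 5 printed windows of the large-subunit genes each reach 50 bp to either side of the summit, on ce11 (WBcel235) and on the strand of the gene, and the RefSeq assembly of that build was the source. Capitals mark matches on either strand to AGTGTAT, to the overlapping GTGTATG, to CGCTCCAC or to GGCCTAAA, words chosen after these sequences had been read and counted further on.
rpl-3, chrIII:3867557-3867657, + strand: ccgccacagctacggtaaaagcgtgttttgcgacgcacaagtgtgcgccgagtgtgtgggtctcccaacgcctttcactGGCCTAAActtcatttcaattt
rpl-15, chrIV:654910-655010, - strand: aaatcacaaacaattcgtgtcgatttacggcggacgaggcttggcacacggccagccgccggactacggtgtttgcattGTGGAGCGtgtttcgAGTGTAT
rpl-20, chrIV:4750030-4750130, - strand: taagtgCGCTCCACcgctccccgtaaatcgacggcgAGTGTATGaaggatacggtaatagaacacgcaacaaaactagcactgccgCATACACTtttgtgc
rpl-35, chrIII:7854630-7854730, + strand: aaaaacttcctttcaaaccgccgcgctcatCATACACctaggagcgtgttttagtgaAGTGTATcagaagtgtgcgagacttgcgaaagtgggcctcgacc
rpl-12, chrIV:13240667-13240767, - strand: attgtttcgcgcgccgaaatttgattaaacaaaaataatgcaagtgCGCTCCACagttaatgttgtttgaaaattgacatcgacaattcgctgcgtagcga

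Small-subunit genes with an upstream peak were lower in pooled signal than the 4 leading large-subunit genes. The highest was rps-19, whose product is needed to mature the RNA of the small subunit, with a summit 290 bp upstream on chromosome I (9625856 to 9626315). Its signal was 145 in the pooled list, 86.7 in replicate 1 and 50.7 in replicate 2. The divergent neighbour hsr-9 started nearer, 155 bp from that summit. The rps-12 summit lay 173 bp upstream of its gene and 120 bp from the divergent ska-3. Its signal was 106 in the pooled list, 62.2 in replicate 1 and 45.0 in replicate 2. At rps-28, a gene with no divergent neighbour in range, the summit lay 451 bp upstream and the signal was 94.4 in the pooled list, 45.3 in replicate 1 and 47.1 in replicate 2. All 3 peaks were inside the top set of both replicates.

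The other 3 small-subunit genes had a replicate in which the highest region fell outside the top set. The rps-1 summit lay 253 bp upstream, inside the noncoding RNA gene F56F3.10, with ifet-1 divergent. Its signal was 93.6 in the pooled list, 55.5 in replicate 1 and 36.9 in replicate 2, where it ranked 587 at a q of 0.0162. The rps-26 gene encodes a protein at the exit of the messenger RNA channel, and its summit lay 418 bp upstream, 39 bp from the start of tmem-107 and 100 bp from the snoRNA gene F39B2.14. Its signal was 88.8 in the pooled list, 59.3 in replicate 1 and 30.3 in replicate 2, where the q was 0.108 and the rank 1154. The rps-24 summit lay 335 bp upstream with the rps-24 start nearest. Its signal was 88.4 in the pooled list, 29.6 in replicate 1 and 56.5 in replicate 2, so here replicate 1 was the low one, with a q of 0.223 and a rank of 2184. The rps-26 and rps-24 peaks each reached q below 0.05 in 1 replicate only.

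The 4 printed windows of the small-subunit genes were made and marked in the same way.
rps-12, chrIII:5679075-5679175, + strand: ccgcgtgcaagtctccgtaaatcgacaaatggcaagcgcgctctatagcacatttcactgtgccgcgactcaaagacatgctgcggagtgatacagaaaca
rps-28, chrIV:1659190-1659290, + strand: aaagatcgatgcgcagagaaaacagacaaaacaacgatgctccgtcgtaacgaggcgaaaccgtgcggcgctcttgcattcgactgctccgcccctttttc
rps-1, chrIII:4475615-4475715, + strand: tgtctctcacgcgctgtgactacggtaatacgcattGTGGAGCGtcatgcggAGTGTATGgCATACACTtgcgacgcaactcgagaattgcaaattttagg
rps-24, chrIV:385502-385602, + strand: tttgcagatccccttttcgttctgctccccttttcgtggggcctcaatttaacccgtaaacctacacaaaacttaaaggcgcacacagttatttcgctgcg

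In 8 of the 12 genes with an upstream peak the summit was nearest to the ribosomal protein gene's own start, and in the other 4 (rpl-20, rps-19, rps-12 and rps-26) a divergent neighbour was nearer. A divergent protein-coding gene within 2 kb was present at 8 of the 12. The lists do not assign a region to a gene, so which of the neighbours a shared upstream peak belongs to was not tested.

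The 5 distant peaks lay between 1728 and 1930 bp from the ribosomal protein gene and in each case nearer to another gene. The rpl-27 peak (signal 121 in the pooled list, 86.2 in replicate 1) lay 1930 bp downstream of the rpl-27 start in the 5′ UTR of egl-30, a gene for a G protein subunit, 162 bp from a start of egl-30. A lower peak, with a pooled signal of 107, lay 705 bp downstream of the rpl-27 start, and in replicate 2 the highest region was at this place, 700 bp downstream with a signal of 54.9. The rpl-16 peak, with a pooled signal of 107, lay 231 bp from the start of lias-1. That of rpl-22, with a pooled signal of 90.9 and 45.0 in each replicate, lay inside a tRNA gene 1843 bp downstream of the rpl-22 start. The rps-16 peak lay 1856 bp upstream of rps-16 and 174 bp upstream of fib-1, the gene for the nucleolar RNA methyltransferase fibrillarin, with the mut-15 start nearest at 146 bp. Its signal was 83.3 in the pooled list, 41.6 in replicate 1 and 36.9 in replicate 2. The rpl-11.1 peak, with a pooled signal of 76.0, lay in an intron of T22F3.2, 179 bp from that gene's start.

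**Figure D2:**
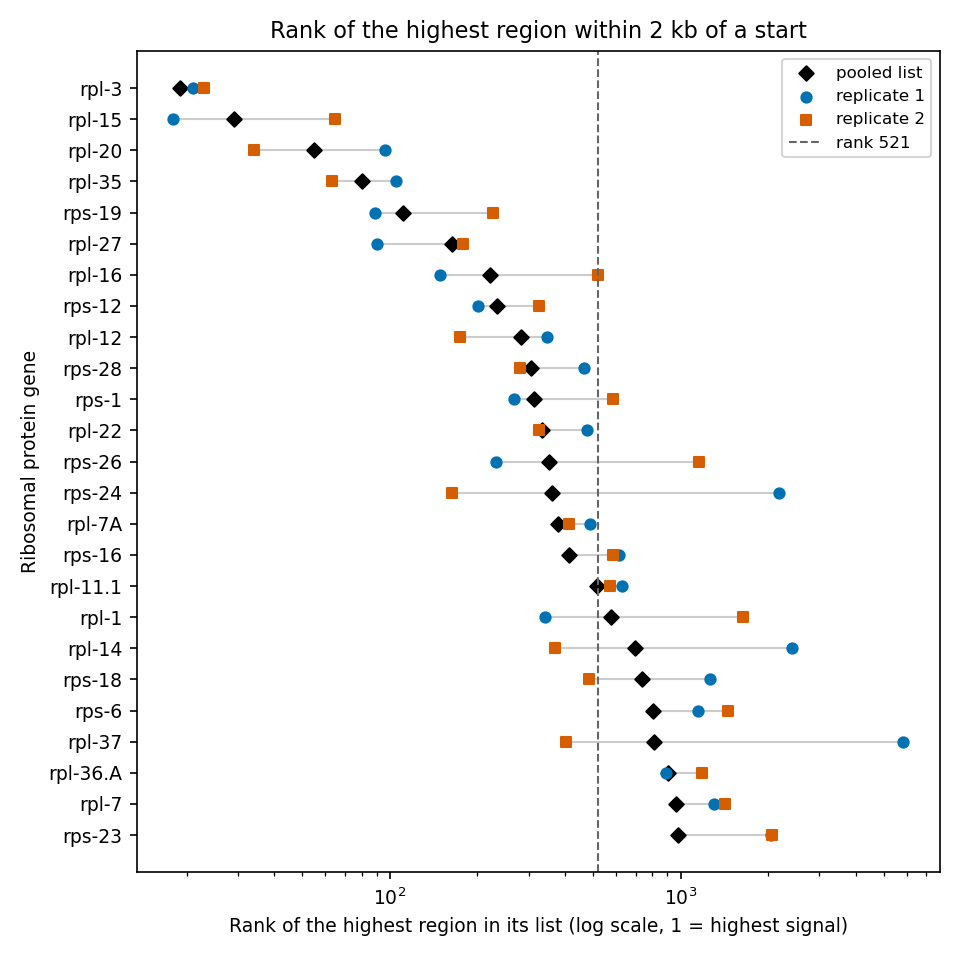
Rank of the highest region within 2 kb of a start (x axis, log scale, 1 is the highest signal) for the 25 ribosomal protein genes of highest pooled signal (y axis), in the pooled list (diamonds), replicate 1 (circles) and replicate 2 (squares), with a dashed line at the rank of the last thresholded peak. The rpl-3 markers lie together at 19, 21 and 23, while those of rps-24 spread from 164 in replicate 2 to 2184 in replicate 1.

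Just outside the thresholded list, whose lowest signal was 75.8, came 8 genes with pooled signals from 73.3 down to 61.0. They were rpl-1 at 73.3, rpl-14 at 68.7, rps-18 at 67.1, rps-6 at 64.7, rpl-37 at 64.5, rpl-36.A at 62.4, rpl-7 at 61.2 and rps-23 at 61.0. In the pooled list the first 5 were at q below 0.05 and the last 3 were above it. None of the 5 was at q below 0.05 in both replicates. The q was 0.208 at rpl-1 in replicate 2. In replicate 1 it was 0.26 at rpl-14, 0.0899 at rps-18 and 0.564 at rpl-37. At rps-6 it was 0.0763 in replicate 1 and 0.173 in replicate 2. The highest rpl-1 region of replicate 2 lay 1077 bp from the pooled summit. The summit lay 0 to 500 bp upstream at rpl-1 (205 bp upstream), rpl-14 (306 bp), rpl-36.A (429 bp), rpl-7 (413 bp) and rps-23 (300 bp). A divergent neighbour started nearer at rpl-36.A (nuo-1, 204 bp from the summit) and at rps-23 (dpm-3, 234 bp). At rpl-1 and rpl-7 the gene's own start was nearest, with Y71F9AL.9 and rab-11.1 divergent. The rps-6 summit, at the gene for the classical substrate of S6 kinase, lay 39 bp inside the gene in a coding exon. The rps-18 summit lay in the 5′ UTR of sec-61.A and the rpl-37 summit in an intron of pitp-1, 1846 bp upstream. At rpl-37 the replicates had their highest region in different places. That of replicate 1 lay 1966 bp from the pooled summit, with a signal of 23.2 and a rank of 5837, and that of replicate 2 lay 138 bp from it, with 41.4 and 402.

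No pooled region lay within 2 kb of 9 genes: rla-0, rpl-9, rpl-10, rpl-21, rpl-25.2, rps-0, rps-8, rps-17 and rps-25. These include rla-0, which encodes the scaffold of the acidic stalk. In all 3 lists nothing was found at rpl-9 and rpl-25.2. The other 7 had a region in at least 1 replicate list, none at q below 0.05. The highest of these was at rps-25 in replicate 1, with a signal of 28.5 and a q of 0.282. With lists of unknown depth, the lack of a region does not show that TBX-8 was absent there. The remaining stalk genes had low pooled regions, with signals of 40.5 at rla-2 and 34.9 at rla-1, in introns of neighbouring genes.

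The signal of the 72 genes with a pooled region ran from 28.5 to 250 with a median of 48.9, while the 9472 genes of the whole genome with a region had a median of 37.4. As a percentile of the pooled list, meaning the percentage of its regions with a signal at or below that of the region, the median was 87.0 for ribosomal protein genes and 62.1 for all genes with a region. The medians were 85.9 against 64.0 in replicate 1 and 84.8 against 62.6 in replicate 2. The rpl and rps genes had pooled medians of 87.1 and 87.6. Among gene sets described further on, the pooled median was 95.3 for histone genes and 92.2 for the other ribosomal and ribosome-bound genes. It was 79.6 for proteasome genes, 76.0 for mitochondrial ribosomal protein genes and 75.4 for initiation and elongation factor genes. Ribosome assembly and RNA polymerase I genes had 75.1 and tRNA synthetase genes 62.4. Not all regions were distinct: rpl-24.1 with rps-10, rpl-41.1 with rpl-41.2, rpl-36 with rps-14, and rpl-39 with rps-30 shared a region, which left 68 regions for the 72 genes.

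Each replicate alone gave a similar count of genes. Some region lay within 2 kb of 77 genes in replicate 1 (all genes 61.1%) and of 75 in replicate 2 (all genes 57.2%). At q below 0.05 there were 21 in replicate 1 (all genes 5.15%) and 20 in replicate 2 (all genes 4.57%), and 15 genes were at q below 0.05 in both (all genes 2.79%). A further 6 genes reached this level in replicate 1 only and 5 in replicate 2 only. Over all genes, 1028 reached it in replicate 1, 912 in replicate 2 and 557 in both. Among the 17 genes with a peak, the highest region near the gene was in the top set at 14 in replicate 1, at 13 in replicate 2 and at 12 in both. That region was not always the peak itself. In both top sets a summit within 100 bp of the highest peak was found at 10 genes, which leaves out rpl-27 and rpl-16. The count of 11 given above adds rpl-27 through its lower peak. The peaks were selected on the pooled reads of the same replicates, so these counts are not an independent check. For the counts of 14, 13, 12 and 10 no value over all genes with a peak is given, so they cannot be set against other genes.

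Across the 73 genes with a region in both replicate lists, log2 signal in the replicates correlated with a Pearson's r of 0.79 and a Spearman's rho of 0.67. Leaving out the 2 genes farthest from the median of replicate 1 gave an r of 0.73. The 8434 other genes with a region in both lists had an r of 0.65 and a rho of 0.42. These are correlations across genes of the same 2 libraries, in which each gene contributes the highest of its regions and neighbours can share one, and they are given as a description. The summits of the replicates lay within 100 bp of each other at 27 of the 73 ribosomal protein genes (37%) and at 25.6% of the other genes. The largest disagreements in percentile were at rpl-42 (20.1 in replicate 1, 88.2 in replicate 2), rpl-23 (79.9 and 17.5) and rps-7 (34.3 and 92.4), and all 3 were at a q above 0.2 in both replicates. At rpl-23 the replicate 1 summit lay 611 bp from the pooled one, so the values there come from different places.

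**Figure D3:**
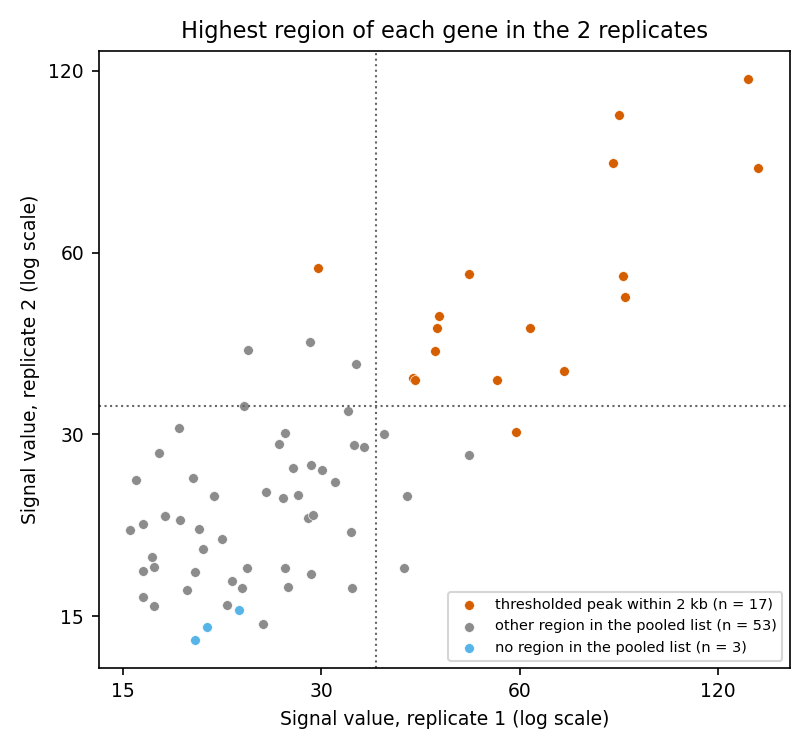
Signal of the highest region within 2 kb in replicate 1 (x axis, log scale) and replicate 2 (y axis, log scale) for the 73 ribosomal protein genes with a region in both lists, with dotted lines at the lowest signal that had q below 0.05 in each list. Of the 17 genes with a thresholded peak (orange), 15 lie beyond both lines, and the 3 genes with no pooled region (light blue) lie at the lower left.

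The regions lay mostly upstream, at 54 of the 72 ribosomal protein genes with a pooled region (75%) and at 58% of all genes with one. The summit lay 0 to 500 bp upstream at 38 of the 72 genes with a pooled region (52.8%) and at 22.3% of all genes with one. Most of this was in the interval from 250 to 500 bp upstream, which held 28 genes (38.9%) against 9.52% of all genes. The interval from 0 to 250 bp upstream held 10 genes (13.9%) against 12.8%. Each replicate alone had the same order, with 35.1% against 8.48% from 250 to 500 bp upstream in replicate 1 and 28% against 9.02% in replicate 2. Within the 500 bp the median position was 301 bp upstream for ribosomal protein genes and 218 bp for all genes. These positions count regions of any q, background regions among them. Of the 72 genes, 22 had their highest region at q below 0.05, beside 966 of the 9472 of all genes. At 36 of the 72 the gene's own start was nearest to the summit, and no such count over all genes is given. Which gene a region belongs to was not tested.

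**Figure D4:**
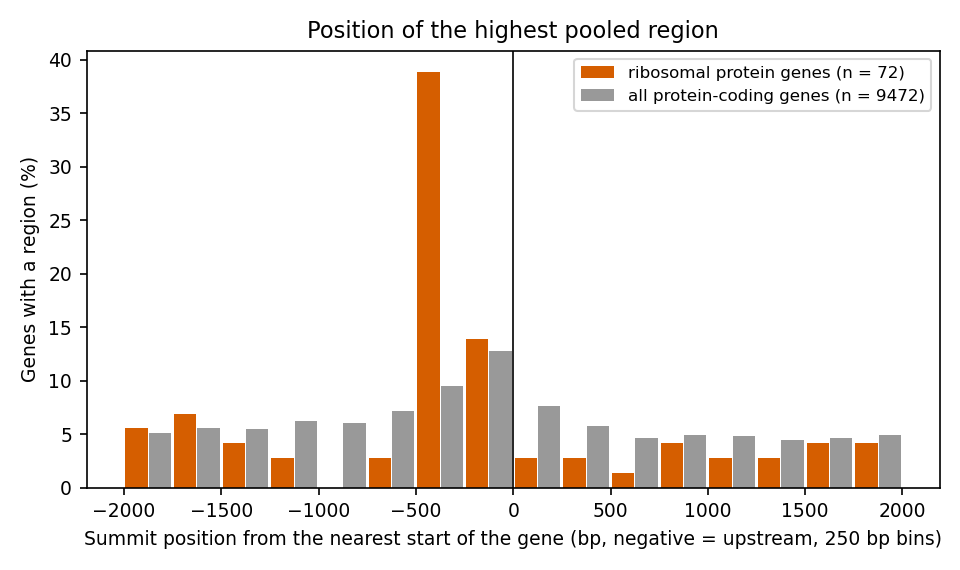
Position of the summit of the highest pooled region relative to the nearest start of the gene (x axis, bp, negative is upstream, 250 bp bins) as a percentage of genes with a region (y axis). Ribosomal protein genes (orange, n = 72) peak at 38.9% in the bin from 500 to 250 bp upstream, where all protein-coding genes (grey, n = 9472) stand at 9.52%. Regions of any q are counted, and a summit can lie nearer to the start of another gene.

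The letters TTTCAG, which end many worm introns and trans-splice acceptors, ended within 5 bases before an annotated start at 44 of the 81 ribosomal protein genes (54.3%) and at 18.5% of all protein-coding genes. Among gene sets described further on, the share was 55% for ribosome assembly and RNA polymerase I and 53.8% for initiation and elongation factors. It was 43.8% for tRNA synthetases, 40% for mitochondrial ribosomal proteins, 39.4% for the proteasome and 4.17% for histones. In the pooled list, regions 250 to 500 bp upstream were found at 16 among 40 ribosomal protein genes with TTTCAG and a pooled region (40%) and at 12 among 32 without it (37.5%). In replicate 2 the shares were 33.3% and 21.2%, and in replicate 1 they were 40.5% and 28.6%. The part of trans-splicing in the position of the regions was not tested.

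Ribosomal protein genes lie in crowded stretches, where a region within 2 kb is counted for more genes. At least 2 other protein-coding genes had a start within 2 kb of the start at 44 of the 81 ribosomal protein genes (54.3%), beside 14.1% of all genes. Among gene sets described further on, the share was 76.4% for histone genes and 54.5% for proteasome genes. It was 37.1% for mitochondrial ribosomal protein genes, 28.2% for initiation and elongation factors and 5% for ribosome assembly and RNA polymerase I. Among all genes the share with a peak went up with the number of such neighbours, from 1.89% with 0 to 10.1% with 4 or more. With 0 neighbours 2 of 8 ribosomal protein genes had a peak (25%), with 1 neighbour 6 of 29 (20.7%, all genes 3.59%), with 2 neighbours 6 of 33 (18.2%, all genes 5.04%) and with 3 neighbours 3 of 9 (33.3%, all genes 7.76%). Neither of the 2 with 4 or more neighbours had one. The classes of crowding were formed after the data had been seen.

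**Figure D5:**
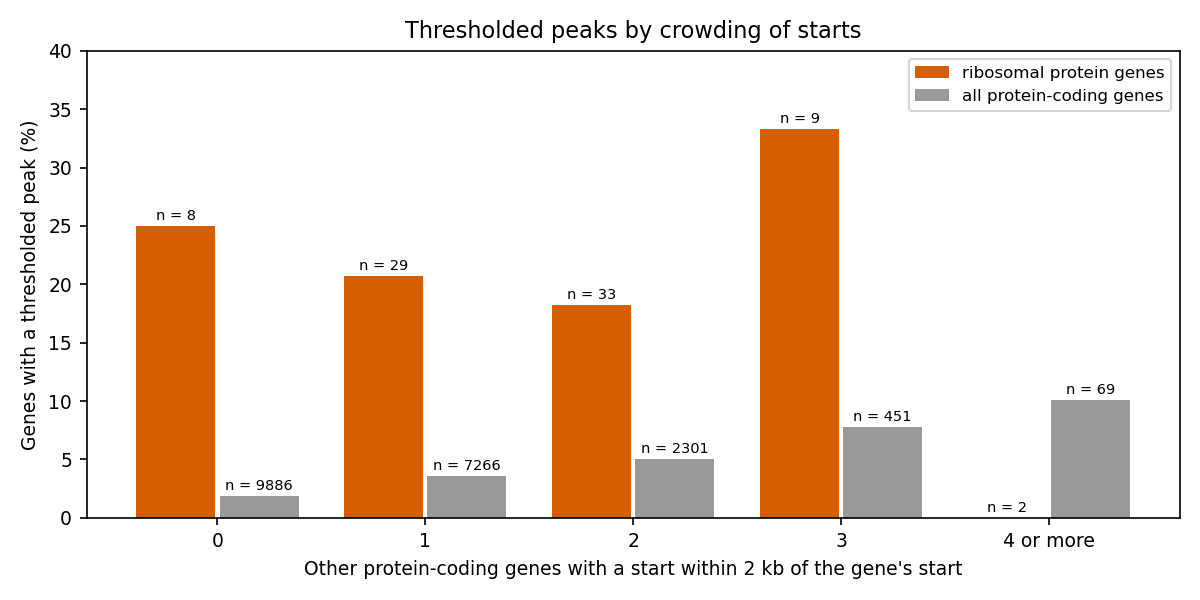
Percentage of genes with a thresholded peak within 2 kb (y axis, from 0) by the number of other protein-coding genes with a start within 2 kb (x axis), for ribosomal protein genes (orange) and all protein-coding genes (grey), with the number of genes above each bar. The orange bars stand at 25%, 20.7%, 18.2% and 33.3% for 0 to 3 neighbours, and the grey bars go from 1.89% to 10.1%.

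Small RNA genes were considered because many ribosomal protein genes carry snoRNA genes in their introns. A small RNA gene lay inside 13 of the 81, and 3 of these (rpl-15, rps-12 and rpl-7A) had a peak. In all 3 the peak was upstream, and the nearest snoRNA gene lay 599, 253 and 306 bp away. At q below 0.05 were 3 of the 13 host genes (23.1%) and 19 of the 68 others (27.9%), beside 4.84% of all protein-coding genes. The number of host genes among all protein-coding genes, and their share at this level, are not given. With 13 host genes, a difference between hosts and others was not tested. Within 200 bp of a small RNA gene were 2 of the 17 peaks, those of rps-26 and rpl-22. By comparison, 425 of the 606 protein-coding genes with a peak had one away from small RNA genes.

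By chromosome, a peak within 2 kb was found at 6 of the 18 ribosomal protein genes on IV (all genes there 2.9%), 5 of the 18 on III (4.77%) and 3 of the 25 on I (3.61%). The counts were 1 of 10 on II (3.13%), 2 of 8 on V (1.58%) and 0 of 2 on X (3.44%). The 12 upstream peaks were divided into 6 on IV, 4 on III and 2 on I. The number of genes per chromosome is small and no test was made.

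Words were counted from 100 bp before to 100 bp after each summit, on both strands. The T-box core GGTGTG was in 0 of the 17 peaks at ribosomal protein genes, in 9.6% of all peaks and in 6.89% of pooled regions. It was in 1 of the 22 regions of ribosomal protein genes at q below 0.05 (4.55%) and in 4 of their 68 highest regions (5.88%). The longer AGGTGTGA was in 0 of the 17 and in 0.96% of all peaks. GAGAGA was in 2 of the 17 (11.8%, all peaks 32.2%), GGGCGG in 3 (17.6%, all peaks 14.6%) and TATAAA in 0 (all peaks 13.8%). The windows had a median GC content of 43.8%, between the 46.8% of all peaks and the 39.3% of pooled regions. A missing word says only that these letters are not in the window.

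Other words stood out when the printed sequences were read, and their counts are descriptions of the sequences they were taken from. AGTGTAT was in 4 of the 17 peaks (rpl-15, rpl-20, rpl-35 and rps-1), in 1 of the 51 other regions of ribosomal protein genes and in 2.69% of all peaks. GTGTATG, which shares 6 letters with it, was in the same 4 and in rpl-16, and in 5.37% of all peaks. In the rps-1 window AGTGTATG is followed after 1 base by its reverse complement, and the rpl-20 window holds both forms farther apart. CGCTCCAC was in 4 peaks (rpl-12, rpl-15, rpl-20 and rps-1), in 1 of the 51 other regions and in 2.88% of all peaks and 0.679% of pooled regions. The windows of rpl-15, rpl-20 and rps-1 thus held both kinds of word. In the 500 bp before the outermost start, AGTGTAT was present at 4.94% of the ribosomal protein genes, 5.45% of all protein-coding genes and 10% of mitochondrial ribosomal protein genes. GTGTATG was there at 6.17% of the ribosomal protein genes and 3.82% of all genes, and CGCTCCAC at 7.41% and 1.27%.

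A different pair of words was frequent in the 500 bp before the outermost start of ribosomal protein genes, counted over all 81. GGCCTAAA, also on either strand, was there in 22 of the 81 (27.2%), at a median of 223 bp upstream, and in 1.65% of all protein-coding genes. In these 500 bp it was in 6 of the 12 genes with an upstream peak and in 16 of the other 69. The windows at summits held GGCCTAAA in 3 of the 17 peaks (rpl-3, rpl-7A and rps-28) and in 3 of the 51 other regions. The shares were 1.34% of all peaks and 1.09% of pooled regions. GCGAGACC was in 23 of the 81 (28.4%), at a median of 282 bp upstream, and in 2.36% of all genes. None of the 12 genes with an upstream peak held it, while 23 of the other 69 did (33.3%). In the windows at summits GCGAGACC was in 1 of the 17 peaks (rpl-16) and in 7 of the 51 other regions of ribosomal protein genes (13.7%). It was in 2.11% of all peaks and 1.24% of pooled regions. Mitochondrial ribosomal protein genes held each of these words in 1 of 70 cases (1.43%). Among 39 initiation and elongation factor genes, 3 held GGCCTAAA (7.69%) and 2 held GCGAGACC (5.13%). Both words were chosen after the sequences had been read, so the contrast was not tested.

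Other genes of protein synthesis were scored by the same rule. Of the 5 genes for ribosomal or ribosome-bound proteins with other names (ubl-1, ubq-2, rack-1, icd-1 and icd-2), 0 had a peak and 2 were at q below 0.05. These were icd-2, for a subunit of the nascent polypeptide-associated complex, with a signal of 75.4, just under the lowest peak, and ubl-1, for a ubiquitin-like fusion of a small-subunit protein, with 69.1. The icd-2 summit lay 1097 bp downstream of the icd-2 start and 234 bp from that of wwp-1. The ubl-1 summit lay 1896 bp downstream and 310 bp from the start of H06I04.3. The highest ubl-1 regions of the replicates lay 2035 and 2045 bp from this summit. Of the 5 genes, 0 were at q below 0.05 in both replicates. Mitochondrial ribosomal protein genes had a peak in 6 of 70 cases (8.57%). The highest were mrps-28 at 291 and mrpl-23 at 169, both within 200 bp of a snoRNA gene and about 1 kb from the start. The median summit of their pooled regions lay 75 bp upstream, beside 298 bp for the cytoplasmic set. In replicate 1 these medians were 229 and 275 bp upstream, and in replicate 2 they were 110.5 and 275 bp. For the lists that follow, pooled medians ran from 120 bp upstream (histone genes) to 486 bp (ribosome assembly and RNA polymerase I genes).

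Initiation and elongation factor genes had a peak in 6 of 39 cases (15.4%), led by eif-2Bgamma at 96.2, inside an snRNA gene, and iff-2 at 88.2, 108 bp upstream. For genes of tRNA synthetases, which load amino acids onto tRNA, the count was 2 of 32 (6.25%). They were ears-2 at 204, 45 bp upstream, and fars-1 at 169, which shares the region of mrpl-23. Ribosome assembly and RNA polymerase I genes had 1 of 20, the fib-1 peak that also counts for rps-16, and pro-1 followed with a signal of 53.6 and a q of 0.185. Outside protein synthesis, histone genes had 17 of 72 (23.6%), led by the shared region of his-67 and his-68 at 221. Proteasome genes had 1 of 33, pbs-5 at 159, and rpn-8 followed at 74.2. Every one of these shares stands beside the 3.03% of all genes, several lists share regions with neighbouring genes, and differences between lists were not tested.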

How the data were processed

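Per the labels and the deposited file descriptions, regions were called on each of 2 biological replicates and on their pooled reads, each with a control, on ce11. The thresholded list holds the regions left after the irreproducible discovery rate step. Neither the aligner nor the peak caller is named in the labels or headers. The deposited signal is the caller's value for a region, with no scaling between lists stated. The deposited −log10 q-value was converted to q and read at a threshold of 0.05, and the deposited summit offset gave each summit. Calls on pooled reads have no replicate error of their own, and the replicate lists were used for that.

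Starts, UTRs and small RNA genes came from Ensembl release 115 and sequence from the RefSeq genome, both of WBcel235. Each gene took the highest region within 2 kb of any start, regions were matched at 100 bp, and small RNA genes counted as near within 200 bp. With 1 group and members that share regions, counts were set beside those of all genes and no test was made. Scoring was tested on simulated regions. Named genes are those with a peak, the 8 next highest, those with no pooled region, the 3 most unlike between replicates and the 2 highest of each other list. In the ribosome assembly list 20 of 23 symbols matched. The genes and lists were chosen with earlier results of these data known. Python 3.11.15, numpy 2.4.6, scipy 1.17.1 and matplotlib 3.10.9 were used.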

Additional observations from a re-analysis of the deposited data

How the results depend on the processing

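Alternatives changed the distance, the start or summit used, the handling of neighbours and small RNA genes, the threshold and the replicates. Of 40 values for the 4 main results, 29 stayed within 1.5 times a count or 1 SD between replicates (0.802) of the median percentile. When a region counted only for the nearest start, 8 genes had a peak (all genes 1.86%), 12 a region at q below 0.05 (3.06%) and 45 any region (36.8%), and the median percentile was 72.7 in place of 87.0. For the percentile under this rule no value over all genes is given, so its contrast with all genes cannot be read there. The highest 260 peaks reached 8 genes (all genes 1.63%), and peaks high in both replicates reached 11 (1.83%). The median percentile was 88.5 with starts within 5 kb and from 1000 bp upstream to 200 bp downstream, and 85.3 away from small RNA genes. It was 84.8 without replicate 1 and 85.9 without replicate 2. In these lists of 1 replicate a region in the top set was counted in place of a peak. Without replicate 1 there were 16 such genes (all genes 3.03%), and without replicate 2 there were 15 (2.95%). They include genes with no peak, which are rpl-14, rpl-37 and rps-18 in replicate 2 and rpl-1 in replicate 1. The count at q below 0.05 was 20 (4.57%) without replicate 1 and 21 (5.15%) without replicate 2. Any region was found at 75 (57.2%) and 77 (61.1%). For single genes, 23 of 56 percentiles in the list of 1 replicate lay farther from the pooled value than the SD of that gene's own 2 replicate values, a measure that is wide where the replicates disagree. The depth is unknown, so weak regions and missing regions cannot be weighed. No paired analysis was possible because both replicates belong to 1 group.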
